A study of Mus with 2 samples.

Results

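The genes described here are 10 genes of megakaryocytes and platelets, chosen by symbol: Pf4, Itga2b, Gp1bb, Gp9, Gp5, Vwf, Treml1, F2r, Selp and Plek. All 10 were found among the 27998 genes listed, and all had UMIs in both libraries. UMIs (unique molecular identifiers) count tagged RNA molecules, so their levels are not divided by gene length. Hematopoietic stem cells (HSCs) had been sorted from the marrow of mouse tibias and fibulas as LSK FLT3- CD150+ CD48- cells, 1000 per genotype, and captured on the 10x Genomics Chromium. One library came from 5 pooled Mx1-Cre Id2+/+ mice and the other from 5 pooled Mx1-Cre Id2Δ/Δ mice, aged 8 to 12 weeks, and HSCs were purified 2 weeks after pIpC in both. Mx1-Cre is a recombinase that pIpC switches on through interferon, in many cell types as well as in HSCs, so it is not specific to blood cells. With 1 library per genotype no test between genotypes is possible. Values in parentheses after a level, share or ratio are its 95% interval, which holds counting error alone, and library and genotype cannot be told apart. In sums over a library, fewer cells with a transcript and less of it per cell cannot be told apart, and for this reason values per cell are given beside the sums.

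Megakaryocytes are the marrow cells that shed platelets. Platelets stick to a damaged vessel through the glycoprotein Ib-IX-V complex, which holds von Willebrand factor, are activated by thrombin, release their granules, and join to each other through the integrin αIIbβ3. A share of HSCs already carries transcripts of these genes, and such cells are described as platelet-biased, with Pf4 and Vwf among the genes used to recognise them. By role, Pf4 (platelet factor 4) is a chemokine stored in α-granules. Itga2b encodes the αIIb chain of the fibrinogen receptor, known as CD41. Gp1bb, Gp9 and Gp5 encode 3 of the chains of the glycoprotein Ib-IX-V complex, and Vwf encodes its ligand. Selp (P-selectin) and Treml1 are granule membrane proteins that reach the platelet surface on activation. F2r encodes PAR1, a receptor for thrombin, and is not read here as the thrombin receptor of mouse platelets. Plek (pleckstrin) is a major substrate of protein kinase C in platelets.

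Positions of the loci are from RefSeq (GRCm38.p6, the assembly that mm10, the build named by the submitters, is made from). Pf4 is at chr5:90772435-90773383 and Itga2b at chr11:102453297-102469883. The chains of the receptor complex are at chr16:18620319-18622403 (Gp1bb), chr6:87776131-87779786 (Gp9) and chr16:30307685-30310781 (Gp5). Vwf is at chr6:125552948-125686679, Treml1 at chr17:48359916-48367176 and F2r at chr13:95601780-95618466. Selp is at chr1:164115264-164150026 and Plek at chr11:16971206-17008718. All are protein coding, and UMIs were counted per gene, without the exon they came from. Gp1bb overlaps Septin5 and Selp overlaps Gm16548 in that annotation, so a part of the UMIs of these 2 genes is uncertain.

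The libraries held 8612217 UMIs (Id2+/+) and 17140713 UMIs (Id2-deleted). After cells with neutrophil or erythroid markers had been set aside, 262 and 416 cells were retained, with medians of 7081 and 9663 UMIs. The least deep retained cell had 4419 UMIs in the Id2+/+ library and 6181 in the Id2-deleted library, because the limit for a cell was set within each library. Set aside were 35 and 156 erythroid-like, 9 and 13 haemoglobin-rich and 27 and 40 neutrophil-like cells. Of the called barcodes, 1 occurred in both libraries. Id2 had 22 UMIs in the retained Id2+/+ cells and 0 in the retained Id2-deleted cells, a count that leaves room for a UMI in as many as 0.721% of them. As only 7.63% of Id2+/+ cells had an Id2 UMI, this limits detection and not the share of cells that kept the gene. The 10 HSC markers summed to 862 and 662 CPM (UMIs of a gene in each 1000000 UMIs of the cells summed) in retained cells, and all 10 were found. Of 8 other megakaryocyte markers, 6 had UMIs, and 2 that mark maturing megakaryocytes, the β1-tubulin gene Tubb1 and the collagen receptor gene Gp6, had 0 UMIs in both sets of retained cells. They were hardly found in any barcode of the libraries (0 and 1 UMIs of Tubb1, 0 and 5 of Gp6), so these zeros say little about maturing megakaryocytes.

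Pf4 was by far the most abundant of the 10 genes in retained cells. It reached 1039.6 CPM in Id2+/+ cells (interval 997 to 1084, 2218 UMIs) and 1651 CPM in Id2-deleted cells (1615 to 1688, 7737 UMIs). It made up 66.1% and 72.6% of the UMIs of the 10 genes. Itga2b came next in both libraries, at 125 CPM (111 to 141) and 162 CPM (151 to 174). Selp was the lowest, at 8.44 CPM (5.00 to 13.3) and 15.6 CPM (12.2 to 19.6).

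Between these ends, the order differed in detail. In Id2+/+ cells F2r was at 100.3 CPM (87.3 to 115) and Gp9 at 92.8 CPM (80.3 to 107). Their intervals overlapped, and that of F2r overlapped the interval of Itga2b too. Gp1bb (51.1 CPM, 42.0 to 61.6), Gp5 (50.2 CPM, 41.1 to 60.6) and Plek (42.2 CPM, 33.9 to 51.9) followed with overlapping intervals, then Treml1 (32.8 CPM, 25.6 to 41.5) and Vwf (29.1 CPM, 22.3 to 37.3). In Id2-deleted cells Gp9 was at 113 CPM (103 to 123), followed by Gp1bb at 80.7 CPM (72.7 to 89.2) and F2r at 73.6 CPM (66.1 to 81.8), whose intervals overlapped. Gp5 was at 61.9 CPM (55.0 to 69.4), Plek at 49.7 CPM (43.5 to 56.5), Vwf at 35.9 CPM (30.6 to 41.7) and Treml1 at 32.7 CPM (27.7 to 38.3). In order of level F2r therefore stood at rank 3 in the Id2+/+ library and rank 5 in the Id2-deleted library. F2r was the single member lower in Id2-deleted cells with an interval of the ratio between the libraries wholly below 1 over all retained cells. In cells with a UMI of a Y-linked gene and none of Xist, however, its ratio was 1.15 (0.802 to 1.66).

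**Figure D1:**
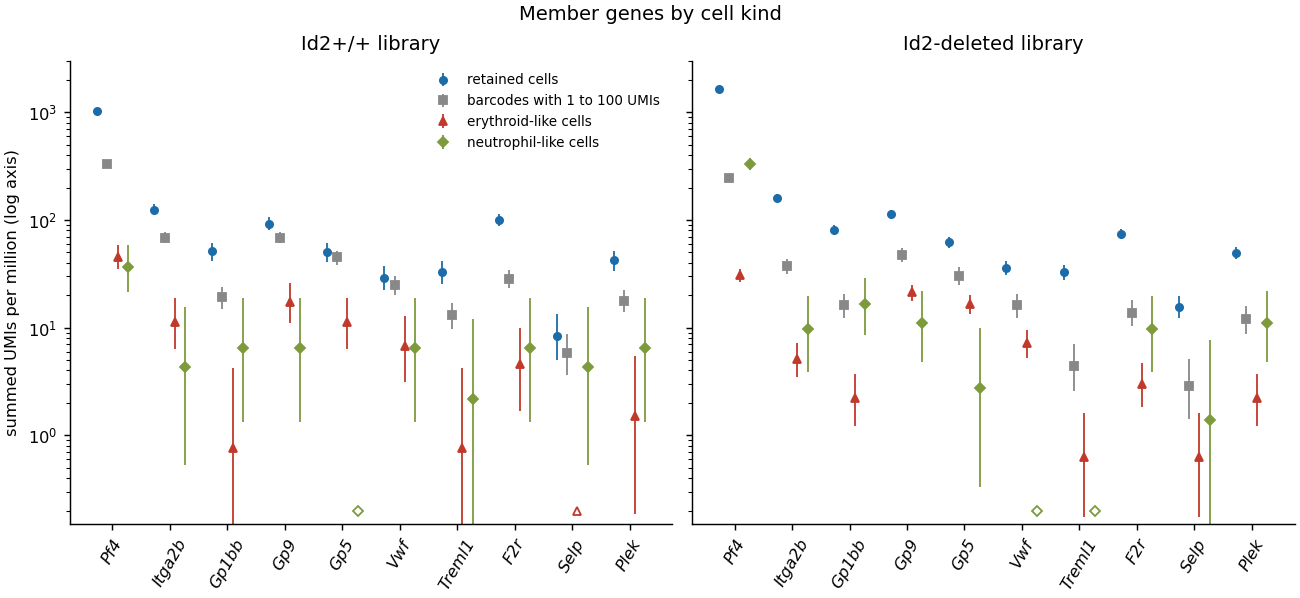
Levels of the 10 genes (x axis) as summed CPM on a log y axis, in retained, erythroid-like and neutrophil-like cells and in barcodes with 1 to 100 UMIs, 1 panel per library. Bars are exact Poisson intervals at 95%, and open symbols at the foot mark 0 UMIs. Retained cells stand highest for every gene, with Pf4 at 1039.6 and 1651, while the Id2-deleted neutrophil-like cells reach 333 for Pf4 through 1 cell.

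The members were low in the other cells of the same sort. In erythroid-like cells, which are red cell precursors by their markers, Pf4 was at 45.5 CPM (34.7 to 58.6) where Id2 was present and at 30.7 CPM (26.6 to 35.4) where it was deleted. Retained over erythroid-like cells, all 9 members with at least 20 UMIs in the Id2+/+ library were past a ratio of 1.5, against 39.7% of all genes tested. Selp had 18 UMIs in these cells and 0 in erythroid-like cells, which makes it at least 3.71-fold higher against a floor of 3 UMIs over the erythroid-like cells. In the Id2-deleted library all 10 members were past that ratio, against 40.8% of all genes. At their erythroid-like level in both kinds of cell, Gp1bb, Treml1, F2r and Plek in the Id2+/+ library and Treml1 and Selp in the Id2-deleted library would not have reached 20 UMIs, so they entered through the retained cells and these counts are a description. The ratios ran from 4.26 (Vwf) to 67.4 (Gp1bb, on 1 erythroid-like UMI, 11.8 to 2685) in the former library and from 3.76 (Gp5, 2.99 to 4.75) to 53.7 (Pf4, 46.6 to 62.3) in the latter. The lowest 3 ratios in each library were those of Gp9, Gp5 and Vwf.

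Relative to Pf4, the members were not in the same proportion in erythroid-like cells. For each 100 Pf4 UMIs there were 8.93 Gp9 UMIs (7.68 to 10.3) in retained Id2+/+ cells, 20.6 (18.0 to 23.4) in the barcodes with 1 to 100 UMIs and 38.3 (22.6 to 62.9) in erythroid-like cells. In the Id2-deleted library the same measure was 6.82 (6.24 to 7.45), 19.4 (16.5 to 22.8) and 69.1 (55.0 to 86.5). Gp5 was at 4.82 (3.94 to 5.86) in retained Id2+/+ cells against an interval of 13.2 to 44.6 in erythroid-like cells, and at 3.75 (3.32 to 4.21) against 53.6 (41.8 to 68.4) in the Id2-deleted library. Vwf was at 2.80 (2.14 to 3.60) against an interval of 6.54 to 30.4, and at 2.17 (1.85 to 2.53) against 23.2 (16.4 to 32.2). The intervals of retained and erythroid-like cells were apart in both libraries for these 3 genes. Those of Gp1bb, a partner of Gp9 and Gp5 in the same receptor, overlapped in both: per 100 Pf4 UMIs it was at 4.91 (4.02 to 5.96) and 1.67 (0.0415 to 9.65) in retained and erythroid-like Id2+/+ cells, and at 4.89 (4.39 to 5.42) and 7.22 (3.87 to 12.4) in Id2-deleted cells.

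Barcodes with 1 to 100 UMIs, which mostly hold free RNA, carried these transcripts as well. Pf4 was at 334 CPM (317 to 353) in Id2+/+ and 245 CPM (229 to 261) in Id2-deleted barcodes of this kind, above its level in erythroid-like cells of either library. In the Id2+/+ library the levels of 3 members in these barcodes, Gp5 (44.9 CPM), Vwf (24.8 CPM) and Selp (5.77 CPM), were not below the interval of the retained cells. In the Id2-deleted library there was no such member. When the profile of these barcodes was subtracted in proportion to the haemoglobin UMIs of the retained cells (10.5% and 5.41% free RNA), between 90.6% (Gp5) and 97.0% (F2r) of each member's UMIs remained in Id2+/+ cells. In Id2-deleted cells between 97.3% (Gp5) and 99.3% (Treml1) remained.

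In neutrophil-like cells 1 cell set the Id2-deleted value. Pf4 was at 36.8 CPM (21.4 to 58.9) in those of the Id2+/+ library, against 333 CPM (292 to 378) in those of the other. Of the 242 Id2-deleted Pf4 UMIs, 216 came from a single cell of 32734 UMIs, which held 8 of the 10 members and 8 of 11 neutrophil markers and was the cell that Scrublet, a doublet caller, marked in this library. The other 39 cells had 26 Pf4 UMIs, or 37.5 CPM (24.5 to 54.9), a level that overlapped the Id2+/+ value.

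Within the retained cells the transcripts were unevenly spread. The median cell had 3 UMIs of the 10 genes in Id2+/+ and 4 in Id2-deleted cells, and 39 and 32 cells had none. The 10% of cells with most held 77.4% and 78.9% of these UMIs. The single cell with most Pf4 had 336 Pf4 UMIs of 17972 where Id2 was present, which was 15.1% of all its Pf4, and 592 of 38740 where it was deleted, which was 7.65%. Both cells held all 10 members. The Id2-deleted cell had 16 UMIs of Itga2b, 20 of Gp1bb, 12 each of Gp9 and Gp5, 6 of Vwf, 13 of Treml1, 8 each of F2r and Plek and 1 of Selp. Neither was marked by Scrublet.

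Pf4 was more concentrated than the other members, leaving out Selp with its few UMIs, and Gp9 and F2r were the least. For each gene, the 10% of cells with most of it held 92.4% and 90.8% of Pf4, 83.3% and 73.8% of Plek, 81.7% and 75.9% of Gp1bb and 77.1% and 81.7% of Treml1 in the Id2+/+ and Id2-deleted libraries. Such cells held 50.5% and 42.8% of Gp9 and 54.2% and 49.9% of F2r. The Id2+/+ cell with most of the gene in question, not the same cell throughout, gave 12.2% of Plek and 11.9% of Gp1bb, but 4.55% of Gp9. For Selp the top cell had 2 UMIs of 18 and 3 of 73, so that its level rests on single molecules in many cells.

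**Figure D2:**
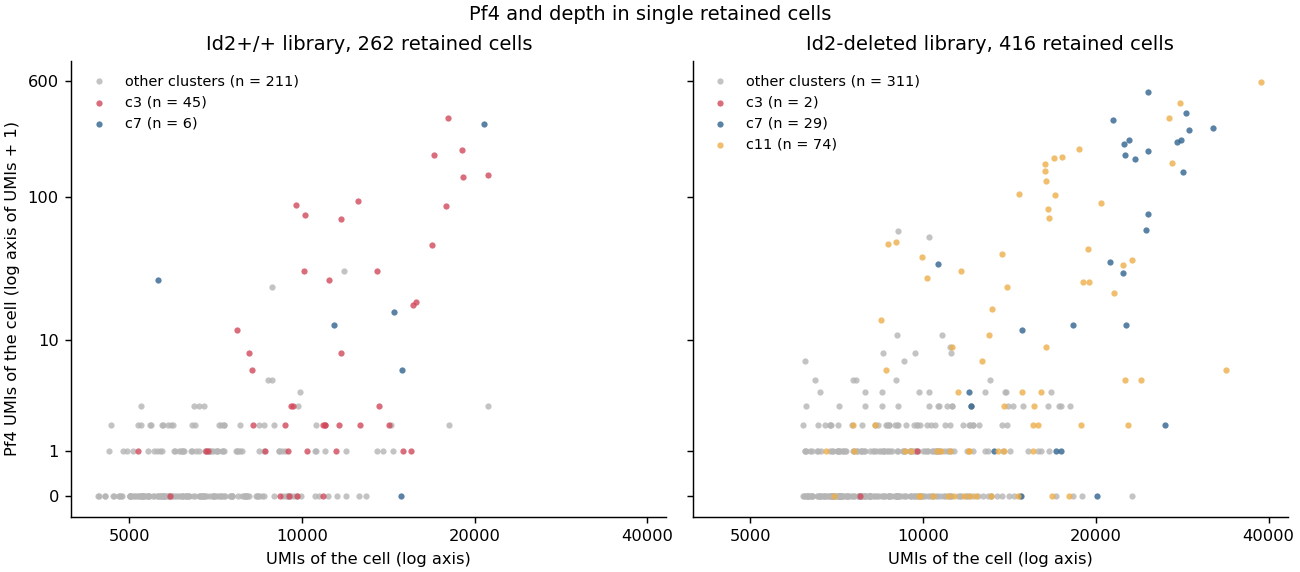
Pf4 UMIs of each retained cell (y axis, log of UMIs + 1) against the UMIs of the cell (x axis, log), with 262 Id2+/+ and 416 Id2-deleted cells, and with clusters c3, c7 and c11 in color. Of the cells with up to 10000 UMIs, 172 of 210 and 178 of 227 have 0 or 1 Pf4 UMIs, while of those above 20000 UMIs 0 of 3 and 2 of 33 do, and the cells with most have 336 and 592.

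Cells were then grouped by all other variable genes, with the members and the other megakaryocyte genes left out. Even so, 3 of 8 clusters of retained cells held most of the Pf4. These were c3 (45 Id2+/+ and 2 Id2-deleted cells, led by Ccl5 besides members), c7 (6 and 29 cells, with Tuba8, Fam64a and Pbk) and c11 (0 and 74 cells, with Sdpr, Rap1b and Ehd3). Together they held 51 of the Id2+/+ cells (19.5%) and 105 of the Id2-deleted cells (25.2%), 28.7% and 37.8% of the UMIs, and 91.7% and 94.1% of the Pf4 UMIs. Different clusters thus held the Pf4-rich cells of the 2 libraries, c3 in Id2+/+ and c11 and c7 in Id2-deleted cells. Such a split was not particular to them: c0 held 131 Id2+/+ and 0 Id2-deleted cells, c9 3 and 135, and c10 11 and 91. Clusters c4 (50 and 27) and c8 (16 and 58) were more mixed. The cells of c3, c7 and c11 were also deeper than the rest, with medians of 11155 against 6651 UMIs and 15836 against 8736 UMIs. As the clusters came from the same cells, these values are a description and not a test.

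The other members followed Pf4 into these clusters to different degrees. Plek had 85.6% and 85.0% of its UMIs there, Gp1bb 84.4% and 90.5%, Treml1 75.7% and 83.7%, Itga2b 70.0% and 74.3% and Gp5 66.4% and 70.7%. F2r had 59.8% and 60.3%, Gp9 46.5% and 56.6% and Selp 33.3% and 47.9%. Vwf had 32 of 62 UMIs there in Id2+/+ and 126 of 168 in Id2-deleted cells.

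Pf4 and Vwf, both among the genes used for platelet bias, parted in cluster c4, which was led by Meg3, Procr and Cdkn1c, genes known from quiescent HSCs. In its 50 Id2+/+ cells Vwf was at 52.9 CPM (30.2 to 85.9), close to the 52.7 CPM (35.0 to 76.2) of c3, whereas Pf4 was at 72.7 CPM (45.6 to 110) against 3136 CPM (2987 to 3290) in c3. In its 27 Id2-deleted cells Vwf was at 47.9 CPM (23.0 to 88.1) and Pf4 at 28.7 CPM (10.5 to 62.6). The c11 cells of that library had 59.6 CPM (46.2 to 75.6) of Vwf and 3177 CPM (3074 to 3283) of Pf4. The highest levels of both genes were in the 29 Id2-deleted cells of c7, with 5905 CPM (5717 to 6099) of Pf4 and 94.0 CPM (71.5 to 121) of Vwf.

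**Figure D3:**
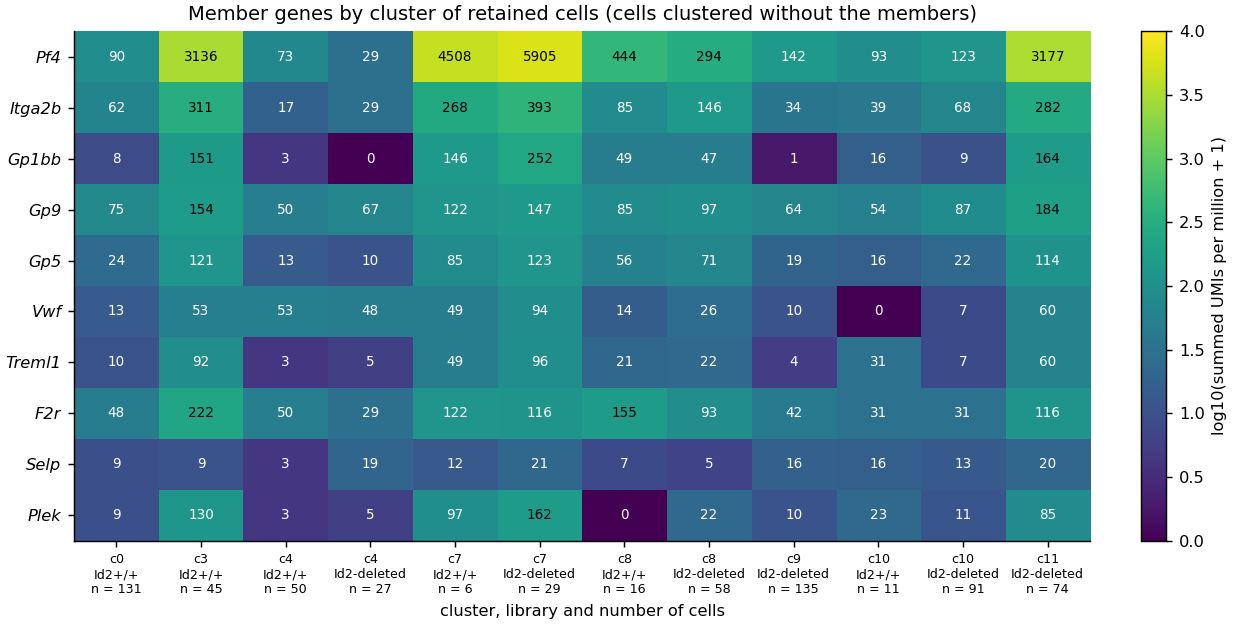
Levels of the 10 genes (rows) in each cluster of retained cells by library (columns, with the number of cells), as summed CPM written in each field and colored on a log10 scale; columns with under 5 cells are left out. Pf4 is at 3136 or more in c3, c7 and c11 and at most 444 elsewhere, while Vwf in c4 is about as high as in c3 and c11.

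To compare detection between libraries, counts were drawn at random from each cell down to 5800 UMIs, which is called thinning here. It left out 66 of 262 Id2+/+ cells as too shallow and no Id2-deleted cell. Pf4 was then found in 91 of 196 Id2+/+ cells (46.4%, 39.3 to 53.7) and 208 of 416 Id2-deleted cells (45.1 to 54.9%). Gp9 was found in 39.8% (32.9 to 47.0) and 41.1% (36.3 to 46.0), and Itga2b in 37.2% (30.5 to 44.4) and 37.5% (32.8 to 42.3). F2r was found in 34.2% (27.6 to 41.3) and 26.2% (22.0 to 30.7), and Treml1 in 14.8% (10.1 to 20.6) and 8.65% (6.13 to 11.8). Vwf was found in 13.3% (8.85 to 18.8) and 11.8% (8.84 to 15.3). The share was higher in the Id2-deleted library for 5 of the 10 genes, and the intervals of the libraries overlapped for all 10. Neither was counted over all genes at this depth, so these counts are a description.

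Erythroid-like cells, a lineage other than that of the members, were measured in the same way, but their Gp9, Gp5 and Vwf were not in the proportion to Pf4 seen in the barcodes with 1 to 100 UMIs of the Id2-deleted library, and they are not a pure measure of free RNA. At the same 5800 UMIs, Pf4 was found in 10 of 34 (29.4%, 15.1 to 47.5) and 30 of 156 (19.2%, 13.4 to 26.3) erythroid-like cells, which had medians of 37625.5 and 40038.5 UMIs before thinning against 7975 and 9663 for the retained cells. Thinning thus removed a larger part of their UMIs, free RNA included, and the shares after it do not measure the free RNA of a whole droplet. Before thinning the order was the opposite, with Pf4 in 82.9% (66.4 to 93.4) and 71.2% (63.4 to 78.1) of erythroid-like cells and in 49.2% (43.0 to 55.5) and 60.1% (55.2 to 64.8) of retained cells. A share of cells with a Pf4 UMI is therefore not read here as a share that expresses the gene. At 5800 UMIs, 3 or more members occurred in 0 of 34 Id2+/+ and 2 of 156 Id2-deleted erythroid-like cells (1.28%, 0.156 to 4.55). The interval of the Pf4 share in Id2+/+ erythroid-like cells thus overlapped that of the retained cells, while the intervals for 3 or more members did not overlap in either library. Vwf was found in 5.88% (0.720 to 19.7) and 2.56% (0.703 to 6.43) of erythroid-like cells, and the former interval overlapped that of retained Id2+/+ cells. Before thinning, Gp9 was found in 51.4% of Id2+/+ erythroid-like cells and 42.0% of retained cells; after it, in 2.94% and 39.8%.

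Of the thinned retained cells, 83 of 196 Id2+/+ (42.3%, 35.3 to 49.6) and 157 of 416 Id2-deleted cells (37.7%, 33.1 to 42.6) held 3 or more members, and 18 (9.18%, 5.53 to 14.1) and 40 (9.62%, 6.96 to 12.9) held 6 or more. The cut at 3 runs through a continuum: 34 and 94 cells held exactly 2 members and 34 and 63 exactly 3. Without thinning the shares with 3 or more were 41.6% (35.6 to 47.8) and 53.1% (48.2 to 58.0). The intervals of the libraries were thus apart at their own depths and overlapped at equal depth. Over 20 thinnings the Id2-deleted share minus the Id2+/+ share lay between -6.50 and 1.55 percentage points. When every cell was thinned to 4400 UMIs instead, so that none was left out, the shares were 24.8% and 30.0%.

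Pf4 itself split the cells more sharply. At 5800 UMIs, 64 Id2+/+ and 141 Id2-deleted cells had 1 to 3 Pf4 UMIs, while 17 (8.67%, 5.13 to 13.5) and 43 (10.3%, 7.58 to 13.7) had 10 or more, and only 3 and 7 cells lay near that cut, with 8 to 11. The cells with 10 or more held 83.3% and 85.1% of the Pf4 UMIs, with medians of 43 and 45 Pf4 UMIs per cell. They had been the deeper cells, with medians of 13524 and 19496 UMIs before thinning against 7732 and 9241 for the rest.

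Of the other 9 members, 6 were found more often in cells with 10 or more Pf4 UMIs with intervals apart in both libraries (Itga2b, Gp1bb, Gp5, Vwf, Treml1 and Plek). The share of all genes with intervals apart between these cells was not counted, so this number is a description. Gp1bb was found in 16 of 17 such Id2+/+ cells (94.1%, 71.3 to 99.9) against 10.1% (6.07 to 15.4) of the others, and in 31 of 43 Id2-deleted cells (72.1%, 56.3 to 84.7) against 13.4% (10.1 to 17.3). Plek was found in 47.1% (23.0 to 72.2) against 10.6% (6.51 to 16.1), and in 27 of 43 (62.8%) against 28 of 373 (7.51%, 5.05 to 10.7). Itga2b was found in 94.1% against 31.8% and in 88.4% against 31.6%. Vwf was found in 41.2% (18.4 to 67.1) against 10.6% (6.51 to 16.1) and in 44.2% (29.1 to 60.1) against 8.04% (5.49 to 11.3). F2r had intervals apart in the Id2-deleted library alone. Gp9 was found in 70.6% (44.0 to 89.7) against 36.9% (29.8 to 44.4) and in 55.8% (39.9 to 70.9) against 39.4% (34.4 to 44.6), with intervals that overlapped in both libraries. Selp was found in 2 of 17 and 4 of 43 cells, and its intervals (1.46 to 36.4% and 2.59 to 22.1%) overlapped those of the remaining cells in both libraries.

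Pairs of members occurred together more often than the product of their shares. This was so for 40 of 45 pairs in Id2+/+ and 43 of 45 in Id2-deleted cells, with medians of 1.45 and 1.49 times the product. The highest values were 2.35 for Gp1bb and Plek in Id2+/+ cells (11 cells with both) and 3.15 for Treml1 and Plek in Id2-deleted cells (15 cells). Gp1bb was the gene with the highest median over its 9 pairs, 1.65 and 1.88, and Selp the lowest in the Id2+/+ library with 1.04. In Id2-deleted cells Gp9 and Selp shared the lowest median, 1.22. Pf4 and Itga2b were found together in 49 of 196 cells (19.1 to 31.7%) and 101 of 416 cells (24.3%, 20.2 to 28.7). Pairs of other genes were not counted, so the counts of member pairs are a description. Cdk1, a mitotic kinase gene that is not a member, was also above the product with Pf4 (1.32 and 1.08) and Itga2b (1.59 and 1.14). With F2r (1.06 and 0.913) and Plek (1.98 and 0.970) it was above the product in Id2+/+ cells and below it in Id2-deleted cells.

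**Figure D4:**
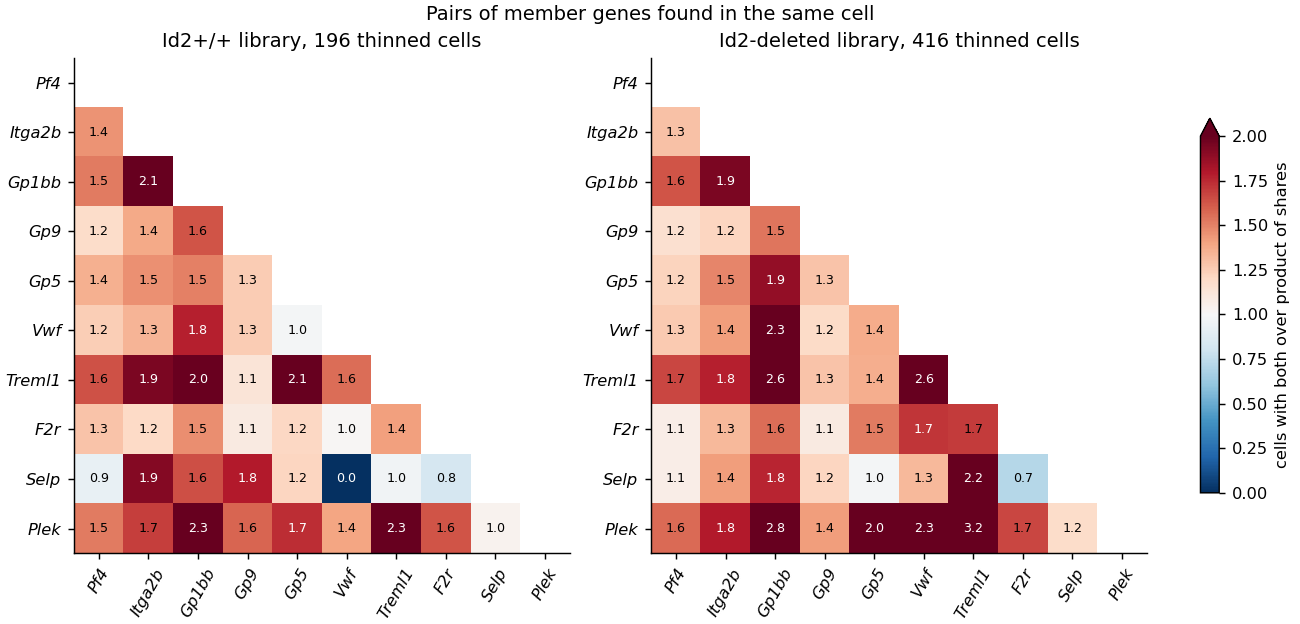
Number of thinned retained cells that held both genes of a pair, divided by the number the product of their shares gives (color and figure in each field, both axes list the 10 genes), in 196 Id2+/+ and 416 Id2-deleted cells. Values above 1 are red; they fill 40 and 43 of the 45 fields, and reach 2.35 and 3.15 in the rows of Plek.

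Across cells, each member's log count correlated with the log of the summed other members with Pearson's r of 0.63 and 0.62 for Gp1bb, 0.58 and 0.59 for Pf4 and 0.56 and 0.59 for Itga2b over 196 and 416 cells that share library and thinned depth. Plek had 0.40 and 0.54 and Treml1 0.43 and 0.39. Gp5 (0.34 and 0.30), Gp9 (0.33 and 0.25), F2r (0.28 and 0.29) and Vwf (0.20 and 0.31) were lower, and Selp had 0.09 and 0.08. In counts this sparse the lower values are no more than a description. Of 7827 genes ranked by their correlation with the sum of the 10 members, the 5 most alike were Rap1b (r of 0.60 in both), Tmsb4x (0.55 and 0.70), Sdpr (0.51 and 0.59), Pdcd4 (0.46 and 0.50) and Cd9 (0.42 and 0.44).

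Vwf and Pf4 were found together in 15 of 196 Id2+/+ cells (7.65%, 4.35 to 12.3) and 31 of 416 Id2-deleted cells (7.45%, 5.12 to 10.4). Of the cells with Vwf, 11 and 18 had no Pf4 UMI. Pf4, Vwf and the mitotic kinase gene Cdk1 were found together in 7 (3.57%, 1.45 to 7.22) and 15 cells (3.61%, 2.03 to 5.88). These shares did not differ beyond counting error between the libraries.

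Cells with many members differed in other gene lists. With 6 or more members, the 10 HSC markers had a median of 2 UMIs per cell in both libraries, against 4 (Id2+/+) and 5 (Id2-deleted) in cells with no member. Procr was found in 0 of 18 against 6 of 29 Id2+/+ cells and in 1 of 40 against 21 of 55 Id2-deleted cells. Mecom, a transcription factor gene of HSCs, was found in 1 of 18 against 7 of 29 and in 0 of 40 against 18 of 55. The intervals of Procr (0 to 18.5% against 7.99 to 39.7%) and Mecom (0.141 to 27.3% against 10.3 to 43.5%) overlapped in the Id2+/+ library. In the Id2-deleted library those of Procr (0.0633 to 13.2% against 25.4 to 52.3%) and Mecom (0 to 8.81% against 20.7 to 46.7%) were apart. Of the 10 markers, 7 were found in a lower share of Id2+/+ cells with 6 or more members and 9 in a lower share of such Id2-deleted cells. The share of all genes that were lower in these cells was not counted. In the Id2+/+ library Meis1 was found in 77.8% (52.4 to 93.6) against 75.9% (56.5 to 89.7), Slamf1 in 2 of 18 against 0 of 29 and Pml in 1 of 18 against 1 of 29 cells. In the Id2-deleted library Meis1 was found in 24 of 40 against 42 of 55 cells, and Fgd5 in 1 of 40 against 0 of 55. The 20 cell cycle genes had medians of 16 against 5 and 17 against 5 UMIs. Depth before thinning differed in the same direction, with medians of 12601.5 against 7489 and 16925 against 8834 UMIs, and its part in these differences beyond the thinning was not tested. The 13 erythroid markers had medians of 7 in both classes of Id2+/+ cells and of 4.5 and 5 in Id2-deleted cells.

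Between the libraries, over all retained cells, 3 of the 10 members were at least 1.5-fold higher in Id2-deleted cells, against 3.76% of 10458 genes tested. None was at least 1.5-fold lower, against 13.3% of genes. Pf4 had a ratio of 1.59 (1.51 to 1.67), Gp1bb 1.58 (1.27 to 1.97) and Selp 1.85 (1.09 to 3.29, on 18 and 73 UMIs, of which the former is under the minimum of 20 taken over both libraries). Itga2b was at 1.29 (1.12 to 1.49) and Gp9 at 1.21 (1.03 to 1.44). Gp5 (1.23, 0.985 to 1.56), Vwf (1.23, 0.917 to 1.68), Plek (1.18, 0.920 to 1.52) and Treml1 (0.995, 0.745 to 1.34) had intervals that held 1. F2r was lower, at 0.734 (0.617 to 0.875). The median log2 ratio of the members was 0.30, against -0.08 over all genes tested.

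These ratios moved with the cells compared and with their depth. Where both libraries were held to the same lowest depth of 6181 UMIs, which kept 177 Id2+/+ cells and all 416 Id2-deleted cells, Pf4 was at 1287 and 1651 CPM with a ratio of 1.28, and Gp1bb had a ratio of 1.26. Neither was then past 1.5, while Selp (1.86) was, and F2r (0.649) was past it in the other direction, against 4.57% of all genes tested that were higher and 11.3% that were lower. In these cells Pf4 was found in 103 of 177 (58.2%, 50.6 to 65.5) and 250 of 416 (60.1%, 55.2 to 64.8), and 10 or more Pf4 UMIs in 22 (12.4%, 7.96 to 18.2) and 56 (13.5%, 10.3 to 17.1). The 66 Id2+/+ cells under 5800 UMIs had 156 CPM of Pf4, and 1 of them had 10 or more Pf4 UMIs. With every cell kept and thinned to 4400 UMIs, the ratio of Pf4 was 1.54 and that of Gp1bb 2.02. Thinned to 5800 UMIs, without those 66 cells, the ratios were 1.22 and 1.13.

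They also moved with the sex of the cells, as each library held cells with Xist, the transcript of the inactive X chromosome, and cells with Y-linked transcripts. Among cells with Xist and no Y-linked UMI (84 and 231 cells, with medians of 8082 and 9924 UMIs), the ratio of Pf4 was 0.661 (0.623 to 0.701), from levels of 2079 CPM in Id2+/+ and 1374 CPM in Id2-deleted cells. Among cells with a Y-linked UMI and no Xist (93 and 90 cells, with medians of 6483 and 9118.5 UMIs), the ratio was 5.93 (5.19 to 6.81), from 344 and 2039 CPM. In the former cells 4 members were at least 1.5-fold lower (Pf4, Treml1, F2r and Plek) and none higher, and in the latter 5 were at least 1.5-fold higher (Pf4, Itga2b, Gp1bb, Vwf and Plek) and none lower. The interval of Vwf (0.956 to 3.65) holds 1, and Gp1bb, Vwf and Plek had 12, 14 and 10 UMIs in the Id2+/+ cells of that subset. The remaining 85 Id2+/+ and 95 Id2-deleted cells had both kinds of transcript or neither and are in neither subset. Of all genes tested, 7.59% were higher and 12.2% lower in the former cells, and 7.58% were higher and 16.1% lower in the latter. The depth of the cells differed between the libraries in both subsets, and its part in these ratios was not tested. The top cell gave 20.5% and 39.0% of the Id2+/+ Pf4 UMIs of these subsets. Of the Id2+/+ cells with 10 or more Pf4 UMIs, 12 of 23 had Xist alone and 3 a Y-linked UMI alone, against 26 and 11 of 56 in the Id2-deleted library, and the other 8 and 19 had both or neither.

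**Figure D5:**
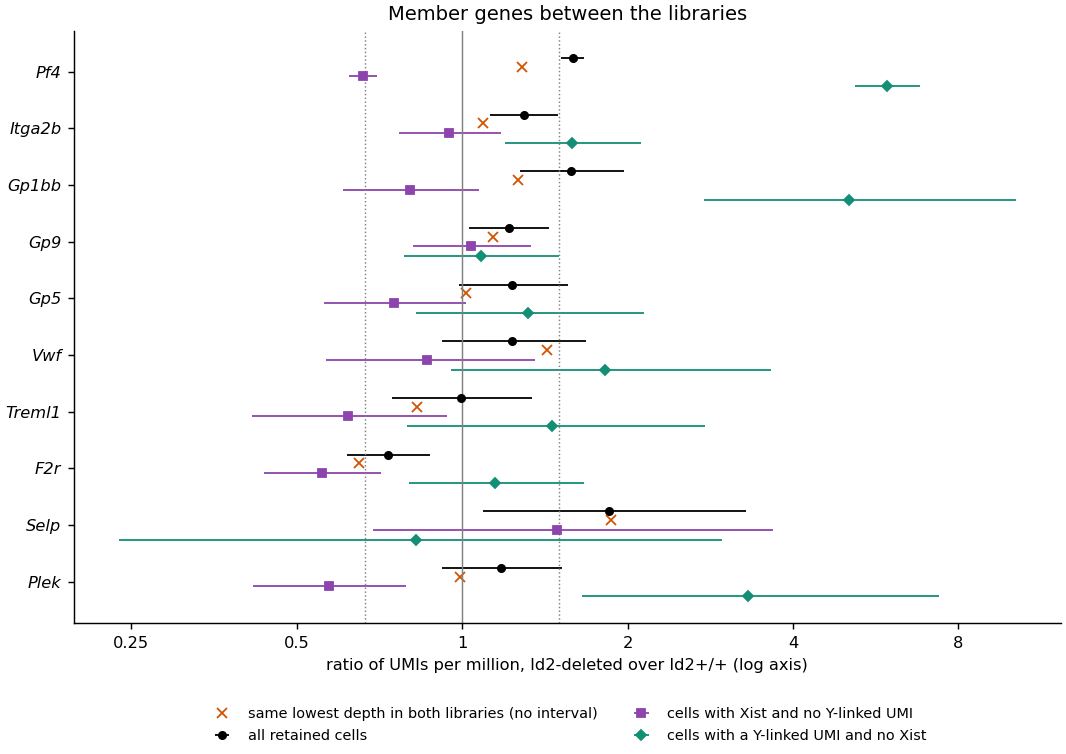
Ratio of CPM, Id2-deleted over Id2+/+, for each gene on a log x axis, with counting intervals at 95%: all retained cells (black), cells with Xist alone (purple), cells with a Y-linked UMI alone (green) and, without interval, the same lowest depth in both libraries (crosses). The solid line marks 1 and the dotted lines 1.5-fold. For Pf4 the subsets lie at 0.661 and 5.93 on either side of the value of 1.59 over all cells.

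The other genes of the lineage, from a list of 4 groups, differed in both directions. Of 61 listed genes, 49 had at least 20 UMIs over both libraries. Of these, 5 were at least 1.5-fold higher and 3 at least 1.5-fold lower in Id2-deleted cells, with a median log2 ratio of -0.07. Over all genes tested 3.76% were higher and 13.3% lower, with a median of -0.08, and the counts of each group are to be read against these shares. None of the 12 transcription factors was past 1.5-fold, and their median log2 ratio was -0.20, with 10 of 12 ratios below 1. The median log2 ratio over all genes tested was negative too (-0.08). Neither the share of all genes with a ratio below 1 nor that with an interval below 1 was counted. The most abundant were Mef2c (303 and 303 CPM, ratio 0.998, 0.909 to 1.10) and Lyl1 (281 and 217 CPM, 0.773, 0.698 to 0.857). Gata1, the master regulator of the megakaryocyte and erythroid lineages, was at 45.9 and 52.1 CPM (1.13, 0.893 to 1.45). The lowest ratio was that of Gfi1b, a transcriptional repressor that both lineages need (0.669, 0.569 to 0.787), and Gata2 (0.782, 0.699 to 0.877), Runx1 (0.771, 0.625 to 0.955) and Fli1 (0.867, 0.754 to 0.999) also had intervals below 1.

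Among receptors and adhesion molecules 2 of 13 were past 1.5-fold higher and 1 lower. The thrombin coreceptor gene F2rl2 had a ratio of 1.73 (1.18 to 2.60) and Gp1ba, the chain that binds von Willebrand factor, 2.28 (0.763 to 9.16, on 4 and 20 UMIs), an interval that holds 1, while Jam3 was at 0.655 (0.446 to 0.967). Cd9 (303 and 347 CPM) was the most abundant. Gp1ba reached the minimum of 20 UMIs through the Id2-deleted library, so its place in the count says nothing of a difference. F2rl2 and F2r, both of the thrombin receptor family, lay on opposite sides of 1 over all retained cells.

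Among granule contents 3 of 11 were past 1.5-fold higher and none lower. These were the chemokine gene Ppbp (3.64, 1.56 to 10.4, on 6 and 48 UMIs), Clu (20.2 and 30.3 CPM, interval of the ratio 1.06 to 2.17) and the coagulation factor gene F5 (1.71, 0.765 to 4.31, on 8 and 30 UMIs). The interval of F5 holds 1, its 8 Id2+/+ UMIs are few, and Ppbp reached the minimum of 20 UMIs through the Id2-deleted library. Srgn, the proteoglycan that packs granules (1001 and 1072 CPM, 1.07, 1.02 to 1.13), and Tgfb1 (353 and 415 CPM, 1.18, 1.08 to 1.28) were the most abundant. Ppbp lies in the same gene family as Pf4 and was at 2.81 and 10.2 CPM, far below it. Among cytoskeletal and signalling genes none of 13 was higher and 2 were lower, the vinculin gene Vcl (0.644, 0.454 to 0.917) and the phospholipase gene Plcg2 (0.656, 0.517 to 0.836). Rap1b (402 and 467 CPM, 1.16, 1.07 to 1.26) and Bin2 (330.5 and 312 CPM, 0.945, 0.863 to 1.04) were the most abundant of them.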

How the data were processed

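The authors deposited raw UMI counts per gene and barcode, 1 matrix of 27998 genes and 737280 barcodes per library, without normalization or a call of cells. The submitters' processing notes name Cell Ranger 2.2.0 and mm10. From these counts, each library's limit for a cell was taken as 10% of the depth of the barcode at the 99% quantile of its 1000 deepest (349 and 632 cells), and cells under 10% mitochondrial UMIs were kept (333 and 625). Cells of both libraries were clustered together (scanpy 1.11.5, 2000 variable genes without the members and the megakaryocyte list, 20 components, 15 neighbours, Leiden resolution 1). A cluster was set aside when 4 or more markers of another type were detected in 25% or more of its cells and lay above a log2 fold of 1. No doublet caller was used for the reported values; Scrublet marked 2 and 1 cells.

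Counts were summed over cells as CPM with exact Poisson intervals, ratios have exact conditional intervals and shares Clopper-Pearson intervals. Genes under 20 UMIs in the sum of both libraries got no ratio, and a call needed a fold of 1.5 (called 1.5-fold lower at the inverse). edgeR 4.0.16 gave TMM factors in 1 alternative. The intervals and the thinning were tested on simulated counts. The members, gene lists and tests were chosen with earlier results of these data known. Named genes are the members, the 2 most abundant and those past 1.5-fold of each list, and the 5 genes most correlated with the members; 1 gene under this rule is not reported here. Gata1, Gata2, Gfi1b, Runx1, Fli1, Tubb1, Gp6, the HSC genes Procr, Mecom, Meis1, Slamf1, Pml and Fgd5, and the genes that name clusters were added after their values were seen. The sources give no sequencing date. Nothing in the labels separates library from genotype.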

Additional observations from a re-analysis of the deposited data

Results flagged for a closer look

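The ratio of Pf4, Id2-deleted over Id2+/+, was 0.661 among cells with Xist and no Y-linked UMI and 5.93 among cells with a Y-linked UMI and no Xist, so the libraries differed in opposite directions in these 2 subsets, with intervals on either side of 1 (0.623 to 0.701 and 5.19 to 6.81). The ratio of Plek was 0.571 (0.417 to 0.789) in the former cells and 3.32 (1.66 to 7.37) in the latter. No test of one sex against the other was run, since each library is 1 pool and the number of mice of either sex in it is not given. In the Id2+/+ library the Y-linked cells held 241 Pf4 UMIs, of which the top cell gave 39.0%, and the Xist cells held 1638. In the Id2-deleted library they held 2024 and 3637. Xist-only cells made up 32.1% of the retained Id2+/+ cells and 55.5% of the retained Id2-deleted cells. The median depth was 8082 and 9924 UMIs in the Xist cells and 6483 and 9118.5 UMIs in the Y-linked cells, and its part in these ratios was not tested. Cells with both kinds of transcript or neither, 85 and 95, are in neither subset.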

How the results depend on the processing

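No paired analysis was possible because the design has a single library of either genotype. Of the 3 members past 1.5-fold, 1 remained with barcodes called at 1000 UMIs and 500 genes, and 1 member (F2r, lower) was past it with all called cells kept. The count was 5 in cells with a Y-linked UMI alone, and 4, all lower, in cells with Xist alone. The Pf4 ratio was 1.47 with that call of cells, 1.20 with all called cells, 1.71 under TMM scaling, 1.73 without the top cell of each library, 0.661 in Xist cells, 5.93 in Y-linked cells, 1.22 when thinned to 5800 UMIs and 1.28 at the same lowest depth. It was 1.54 when every cell was thinned to 4400 UMIs, an alternative that differs from the one at 5800 UMIs in both depth and cells kept. Gp1bb was 1.13 at 5800 UMIs and 2.02 at 4400 UMIs, and turned to 0.803 in Xist cells and Selp to 0.824 in Y-linked cells. At 5800 UMIs 1 member was at least 1.5-fold higher (Selp, 2.42) and 2 were lower (Treml1, 0.646, and F2r, 0.561). At 4400 UMIs 2 were higher and 1 was lower. The shares over all genes were not counted at these thinned depths. Of the 10 members, Gp9 (1.01 to 1.31) alone stayed on the same side of 1 under all 14 alternatives; the others reached 0.945 (Itga2b), 0.751 (Gp5), 0.863 (Vwf), 0.571 (Plek), 1.45 (Treml1) and 1.15 (F2r), of which the value of Itga2b came with all called cells kept, and Plek (0.906) and Vwf (0.976) also fell below 1 there. Of 126 ratios of the other 9 members under 14 alternatives, 96 lay within the counting interval and 28 outside it. The remaining 2, Gp1bb in Xist cells and Selp in Y-linked cells, turned from above 1.5 to below 1. Leaving out the mitochondrial filter, or keeping the member and list genes for clustering, gave every member its main ratio again. These alternatives are among the 14, so part of the 96 only repeats the main values. TMM scaling moved the median log2 ratio of all genes from -0.08 to 0.02 and Treml1 from 0.995 to 1.07. The shares of cells with 3 or more members were 11.2% and 10.3% with 2 UMIs required, 31.3% and 25.6% with all called cells, and 24.8% and 30.0% at 4400 UMIs, and the Id2-deleted share was 53.1% without thinning. The comparisons by sex, by thinned depth and at the same lowest depth were chosen after seeing the data. For Selp, 18 Id2+/+ UMIs limit every ratio.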
